A study of Mus musculus with 20 samples.

Results

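The genes examined here belong to the carriers and receptors through which intestinal cells take up and sense short-chain fatty acids, with the lactate carrier Slc16a3 and the long-chain fatty acid receptor Ffar4 among them. They were listed by name, from known function, at a time when earlier results of these data were known. They number 8 of the 19887 genes in the count table, and they are the carriers Slc16a1, Slc16a3, and Slc5a8, the carrier partner Bsg, and the receptors Ffar2, Ffar3, Ffar4, and Hcar2. All 8 had enough reads to be tested. RNA was sequenced from the cecum of 20 C57BL/6 mice. All of the mice ate the Total Western Diet (TWD), a rodent diet composed to follow human intake in the United States, from weaning for 6 weeks. For the next 3 weeks 5 mice stayed on the TWD alone (0% RPS), and 3 groups of 5 mice received the TWD with 2, 5, or 10% RPS by weight. RPS is raw potato starch, also called resistant potato starch, which took the place of corn starch in the diet. Each library came from 1 mouse, and the sections were whole cecal wall. The study names male mice for its sequencing of cecal bacteria, while the sex of the mice sequenced here and the sharing of litters or cages are not given in the sources used here.

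Starch that escapes digestion in the small intestine is fermented by bacteria in the cecum to acetate, propionate, and butyrate. Colonocytes take these acids up through monocarboxylate carriers, which move them with a proton (the Slc16a family) or with sodium (Slc5a8), and oxidise butyrate as a main fuel. The same acids bind G protein-coupled receptors on enteroendocrine, immune, and fat cells, through which they affect hormone release and inflammation. The comparison of diets asks whether the carriers and receptors differ when more fermentable starch reaches the cecum.

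Total counts per mouse ranged from 14967798 to 42687283, and the members had from 10 counts (Hcar2) to 46724 counts (Bsg) in a mouse. In each mouse the 8 epithelium marker genes summed to between 12400 and 18500 CPM (counts scaled to library size, with trimmed mean of M-values factors, TMM), so the tissue held abundant epithelium. All 8 of these genes had lower estimates with 10% RPS than with 0% RPS (median log2 fold change -0.194). Of them, 4 were lower at an unadjusted p under 0.05, beside 9.75% of all tested genes. Their sum had a median of 15700 CPM with 0% RPS and 13700 CPM with 10% RPS. No gene on any marker list was at 0 in all mice. The summed level of 8 smooth muscle genes had a median of 3360 CPM with 0% RPS (range 2550 to 5860) and 6120 CPM with 10% RPS (range 4150 to 6960). That of 8 goblet cell genes was 11400 CPM (range 9080 to 12200) and 7560 CPM (range 7170 to 8780), with no overlap. The sum of 8 B cell genes ran from 4.03 to 347 CPM over the mice, with a median of 21.7 CPM with 0% RPS (range 6 to 231) and 258 CPM with 10% RPS (range 16.3 to 320).

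Expressed per length of the canonical transcript, the members fell into a high, a middle, and a low tier. Bsg encodes basigin, the chaperone that brings Slc16a carriers to the cell surface, and averaged an RPKM, the CPM divided by that length in kb, of 511 (range 419 to 741 over the 20 mice). Slc16a1, which encodes the proton-coupled carrier MCT1, averaged 199 (range 144 to 242). Slc5a8, which encodes the sodium-coupled carrier SMCT1, averaged 22.5 (range 8.24 to 38.9). These 3 genes held this order in all 20 mice, and Slc5a8 was 7.95 times the next gene by mean.

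The low tier held the receptors and the carrier of glycolytic tissues. Ffar4, a receptor of long-chain fatty acids, averaged an RPKM of 2.83, and Slc16a3, which encodes the lactate exporter MCT4, averaged 1.94. Ffar4 was higher than Slc16a3 in 14 of 20 mice, so these neighbours overlapped. Ffar2, the acetate and propionate receptor also called GPR43, averaged 1.19 and lay below Slc16a3 in 17 of 20 mice. Ffar3 (GPR41) averaged 0.899 and lay below Ffar2 in 15 of 20 mice. Hcar2 (GPR109A), which binds butyrate and niacin, was the lowest at 0.449 and lay below Ffar3 in 19 of 20 mice. No test was run on this order.

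**Figure D1:**
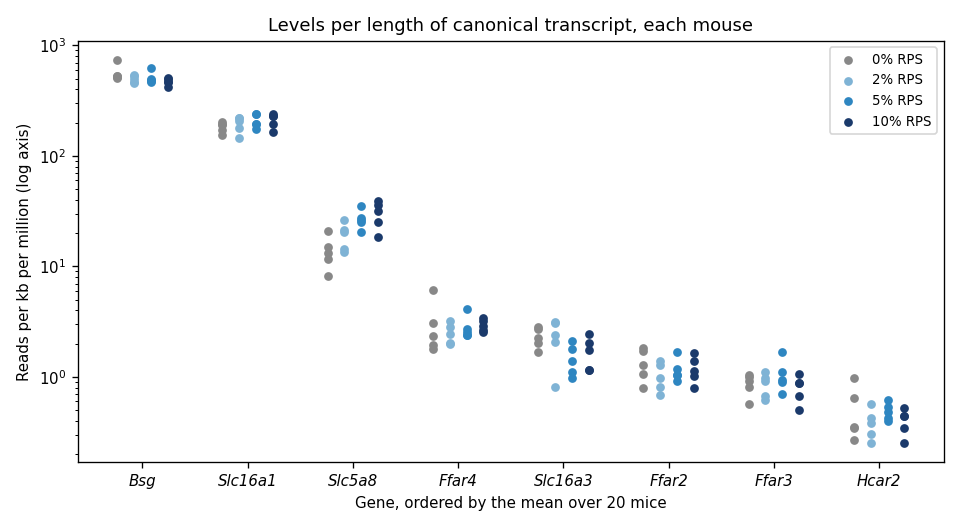
RPKM, on the length of the canonical transcript (log axis), for the 8 genes, 1 point per mouse, coloured by diet, ordered by the mean over 20 mice. Bsg, Slc16a1, and Slc5a8 stand apart from the other 5 genes, whose means lie between 0.449 and 2.83.

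Slc5a8 was the member with a difference past the threshold. The gene (ENSMUSG00000020062) lies on the plus strand at chr10:88721766-88765377 of GRCm39 and has 1 annotated transcript, which shares exon sequence with Gm66637, a long non-coding RNA on the opposite strand that has no row of its own in the count table. Its level in the 5 mice with 0% RPS was 113, 71.2, 62.7, 82.1, and 44.6 CPM, and with 2% RPS it was 117, 111, 73.0, 78.4, and 142 CPM. With 5% RPS the mice had 111, 143, 138, 147, and 193 CPM, and with 10% RPS they had 170, 194, 211, 100, and 138 CPM. The means were 74.7 ± 25.3, 104 ± 28.7, 146 ± 29.4, and 163 ± 44.4 CPM (SD, n = 5). Of the mice fed 10% RPS, 4 of 5 lay above every mouse fed 0% RPS, and the same was seen with 5% RPS. The exceptions were mouse 4 on 10% RPS and mouse 1 on 5% RPS, both below mouse 1 on 0% RPS, so the groups overlapped.

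**Figure D2:**
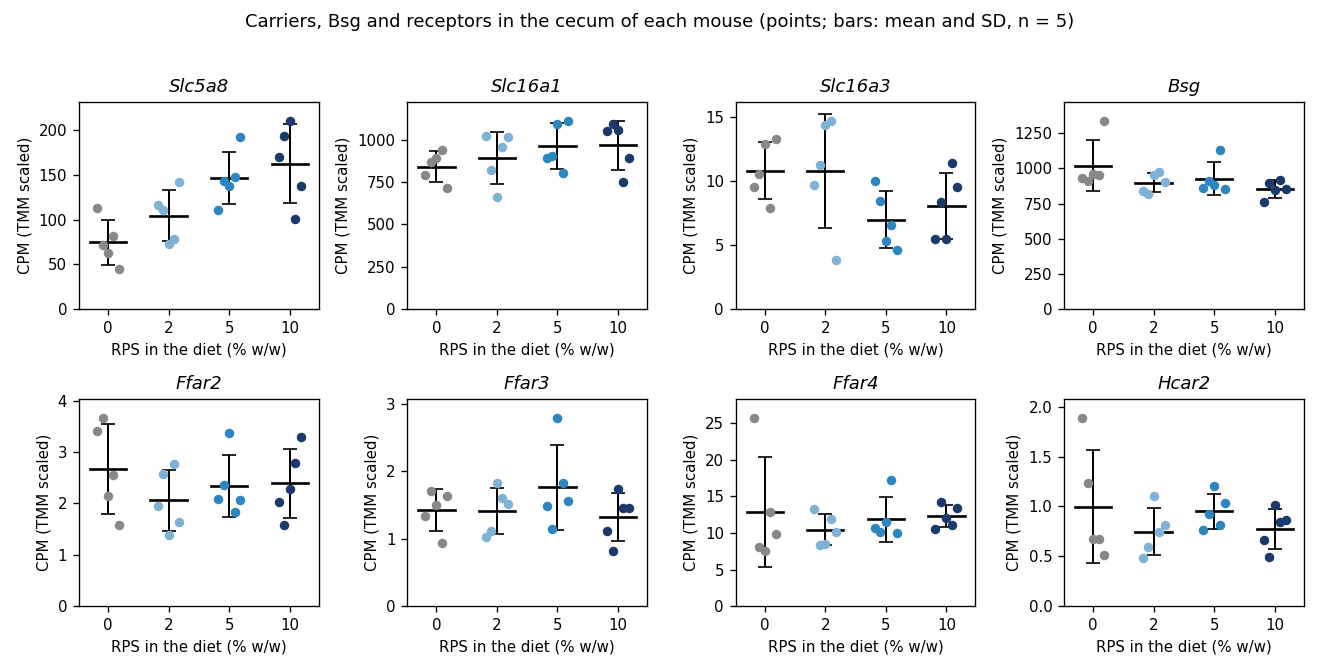
CPM of each gene in each mouse (points) against the percentage of RPS in the diet, with the mean and SD of 5 mice (bars), each panel from 0. Slc5a8 goes from a mean of 74.7 to 163 CPM between 0 and 10% RPS, while the diets overlap in every panel.

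A gene was called when edgeR's quasi-likelihood test gave an adjusted p (Benjamini-Hochberg, 15348 tested genes) no higher than 0.05 and the change was at least 1.5-fold. Slc5a8 was 2.18-fold higher with 10% RPS than with 0% RPS, a log2 fold change of 1.12 (SE 0.24, 95% confidence interval 0.62 to 1.63, adjusted p = 0.0275). It was the 1 of 8 members called in this comparison, in which 1.04% of all tested genes were called and 0.547% were called higher. The estimate with 5% RPS was 0.97 (SE 0.24, interval 0.47 to 1.47), and it did not pass the adjustment (adjusted p = 0.0789), although DESeq2's Wald test called it. With 2% RPS it was 0.48 (interval -0.02 to 0.98, adjusted p = 0.863).

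Against the dose as a number, Slc5a8 rose by 0.107 log2 units for each percent of RPS (SE 0.024, adjusted p = 0.0405). It was the 1 member of 8 past the threshold for the linear trend, where 1.11% of tested genes passed. Between neighbouring doses its differences were 0.49 for 5% against 2% RPS (interval -0.01 to 0.99) and 0.15 for 10% against 5% RPS (interval -0.34 to 0.65), neither of which passed the adjustment. These contrasts share mice, as do the 3 comparisons with 0% RPS.

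The size of the difference was steadier than its call. Leaving out 1 mouse at a time put the log2 fold change with 10% RPS between 1 and 1.32, and the call was kept in 14 of 20 fits. It was lost without mouse 3, 4, or 5 on 0% RPS or mouse 1, 2, or 3 on 10% RPS, with adjusted p between 0.0533 and 0.0921, and it was also lost in a fit of only the 10 and 0% RPS mice (adjusted p = 0.0649). The trend was kept in 8 of 20 fits, and not when scaled to the epithelium marker genes (adjusted p = 0.0585). In whole tissue, a change in the number of cells of a type cannot be told apart from a change in RNA per cell. Slc5a8 is known from surface colonocytes. The 8 surface colonocyte genes summed to 35300 to 40300 CPM with 0% RPS (median 36500) and 25200 to 39900 CPM with 10% RPS (median 29300). By gene, 4 had higher and 4 lower estimates. At an unadjusted p under 0.05 there were 3 in each direction, beside 9.74% of all tested genes higher and 9.75% lower. Of the 8, 1 was called (Slc26a3, higher), beside 0.547% of all tested genes called higher. Scaled to the epithelium marker genes in place of TMM, the log2 fold change was 1.32 and the call was kept. Of the other marker lists, 6 tested small intestine enterocyte genes all had lower estimates with 10% RPS (median log2 fold change -1.053). Of these, 2 were called lower, beside 0.495% of all tested genes. All 8 macrophage genes had higher estimates (median 0.277, with sums of 83.8 to 135 CPM with 0% RPS and 108 to 137 CPM with 10% RPS). Of 8 T cell genes, 6 had higher and 2 lower estimates (median 0.57), and of 10 adipocyte genes, 3 had higher and 7 lower ones (median -0.592). The part of these levels, and of the smooth muscle, goblet, and B cell levels given above, in the Slc5a8 difference was not tested.

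The 250 bases before the start of the canonical transcript are shown for Slc5a8, the called member, and for Slc16a1, the main carrier by level. They were read from GRCm39 at chr10:88721516-88721765 and chr3:104545561-104545810, both on the plus strand, 5′ to 3′. Capitals mark GGGCGG, the letters of the GC box, and ACGTG, a form of the core letters of the hypoxia response element, on either strand. GCGTG, another form of that core, was not searched for and is not marked. Its letters occur in the Slc5a8 window and, on the other strand, in the Slc16a1 window.
Slc5a8: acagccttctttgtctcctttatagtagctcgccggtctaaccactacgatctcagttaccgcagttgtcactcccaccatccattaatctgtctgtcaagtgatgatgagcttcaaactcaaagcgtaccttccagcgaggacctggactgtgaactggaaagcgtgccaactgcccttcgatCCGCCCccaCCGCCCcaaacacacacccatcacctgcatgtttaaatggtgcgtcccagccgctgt
Slc16a1: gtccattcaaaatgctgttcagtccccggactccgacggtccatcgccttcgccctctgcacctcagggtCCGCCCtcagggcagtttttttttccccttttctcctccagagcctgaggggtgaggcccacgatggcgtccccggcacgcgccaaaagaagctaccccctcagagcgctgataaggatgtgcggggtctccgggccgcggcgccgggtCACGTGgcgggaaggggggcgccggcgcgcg

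The Slc5a8 window held 2 matches to GGGCGG and none to ACGTG. The Slc16a1 window held 1 match to GGGCGG, and ACGTG matched it on both strands at the same place, as the palindrome CACGTG. Over the windows of 15336 tested genes, 45.8% held GGGCGG and 19.6% held ACGTG. The window of Slc16a3, which is not printed because it lies within the span of other Slc16a3 transcripts, held 0 of either motif. It did hold the letters GCGTG.

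Slc16a1 was the most abundant of the carriers, and it did not pass the threshold at any dose. The gene (ENSMUSG00000032902) lies at chr3:104545811-104565780. Its level was 790, 869, 893, 940, and 713 CPM with 0% RPS and 1052, 1090, 1058, 749, and 891 CPM with 10% RPS. In the latter group, mice 1, 2, and 3 lay above every mouse fed 0% RPS and mice 4 and 5 lay within their range. Means for 0, 2, 5, and 10% RPS were 841 ± 89.8, 894 ± 153, 960 ± 136, and 968 ± 145 CPM. The log2 fold change with 10% RPS was 0.20 (SE 0.13, interval -0.07 to 0.48, adjusted p = 0.405). It was 0.39 when scaled to the epithelium marker genes (adjusted p = 0.154), and with 5% RPS that scaling gave 0.36 (adjusted p = 0.272).

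By level per length, Slc16a1 made up 91.9 ± 2.09% of the 3 carriers with 0% RPS and 87.0 ± 1.33% with 10% RPS (SD, n = 5). The Slc5a8 share in order of dose was 6.90 ± 2.25%, 8.89 ± 1.67%, 11.4 ± 1.77%, and 12.2 ± 1.64%. Slc16a3 was 1.18 ± 0.35% with 0% RPS and 0.75 ± 0.37% with 10% RPS. MCT1 transcripts thus remained the main part of the carrier RNA in every mouse, with a lowest share of 85.2%. These shares are of RNA and carry no test.

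Slc16a3 (ENSMUSG00000025161, chr11:120838846-120851694) encodes the carrier that exports lactate from glycolytic cells. With 0% RPS it had 9.54, 10.5, 12.8, 7.86, and 13.2 CPM, and with 5% RPS it had 9.97, 8.41, 5.27, 6.51, and 4.57 CPM. With 10% RPS it had 5.47, 8.31, 5.47, 11.4, and 9.49 CPM. With 5% RPS, mice 3, 4, and 5 lay below every mouse fed 0% RPS, and the other two lay within their range. Mice fed 2% RPS spanned the widest range, from 3.82 to 14.7 CPM, around a mean of 10.8 ± 4.42 CPM that was the same as that with 0% RPS (10.8 ± 2.26 CPM). The log2 fold change was -0.63 with 5% RPS (SE 0.30, interval -1.25 to 0.00, adjusted p = 0.374) and -0.43 with 10% RPS (SE 0.30, interval -1.05 to 0.19, adjusted p = 0.444). The latter was -0.26 when scaled to the epithelium marker genes. Exons of Slc16a3 overlap those of Csnk1d and Ccdc57 on the opposite strand, and whether the counting used strand is not stated, so some of these few reads may belong to those genes.

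Bsg (ENSMUSG00000023175, chr10:79540143-79547821) had 933, 910, 957, 951, and 1340 CPM with 0% RPS. With 10% RPS it had 759, 895, 845, 917, and 851 CPM. Mouse 5 on 0% RPS was well above the other 4 mice of its diet. Of the mice fed 10% RPS, 4 of 5 lay below every mouse fed 0% RPS. With 10% RPS the estimate was -0.26 (SE 0.11, interval -0.48 to -0.03), with an unadjusted p of 0.0274 and an adjusted p of 0.200. Without mouse 5 on 0% RPS the estimate was -0.12, and scaled to the epithelium marker genes it was -0.05.

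None of the 4 receptors passed the threshold at any dose. Ffar2, Ffar3, and Hcar2 had the fewest reads of the members, and Ffar4 had more than Slc16a3 by median (348 and 258.5 counts per mouse). Ffar2 (ENSMUSG00000051314, chr7:30517773-30536075, minus strand) had 40 to 105 counts per mouse. Its level was 3.42, 3.66, 2.14, 2.55, and 1.58 CPM with 0% RPS and 2.02, 1.57, 2.28, 2.78, and 3.30 CPM with 10% RPS, and the groups covered nearly the same range. Its log2 fold change was -0.16 (interval -0.70 to 0.37, adjusted p = 0.776). With 2% RPS, where the estimate was lowest, it was -0.37 (interval -0.91 to 0.16).

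Ffar3 (ENSMUSG00000019429, chr7:30553755-30555625, minus strand), a neighbour of Ffar2, had 21 to 65 counts per mouse. Its level was 1.33, 1.71, 1.5, 0.940, and 1.64 CPM with 0% RPS and 1.12, 0.826, 1.74, 1.46, and 1.46 CPM with 10% RPS. The highest value of any mouse, 2.79 CPM, was in mouse 3 on 5% RPS, which had the smallest library. The estimates were -0.11 with 10% RPS (interval -0.65 to 0.42) and 0.29 with 5% RPS (interval -0.25 to 0.82). Without mouse 3 on 5% RPS the latter was 0.08. At these depths a change of 1.5-fold in Ffar2 or Ffar3 lay within the intervals with 10% RPS for a decrease.

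Ffar4 (ENSMUSG00000054200, chr19:38085307-38105287) encodes GPR120 and had 181 to 790 counts per mouse. Its level was 25.7, 8.08, 7.5, 12.8, and 9.93 CPM with 0% RPS and 10.6, 14.3, 12.1, 11.1, and 13.4 CPM with 10% RPS. All mice on the RPS diets lay within the range of the mice fed 0% RPS, which mouse 1 widened. Its estimate with 10% RPS was -0.06 (interval -0.61 to 0.49, adjusted p = 0.932), and without that mouse it was 0.36 (adjusted p = 0.333). An exon of Ffar4 overlaps Rbp4 on the opposite strand.

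Hcar2 (ENSMUSG00000045502, chr5:124001633-124003562, minus strand) had the fewest reads, with 10 to 58 counts per mouse. Its level was 1.89, 1.23, 0.675, 0.671, and 0.516 CPM with 0% RPS and 0.662, 0.490, 1.01, 0.848, and 0.863 CPM with 10% RPS. Mouse 1 on 0% RPS was again the highest. The same mouse had the highest sum of the 8 neutrophil genes, 19.4 CPM against 1.42 to 8.73 CPM in the other 19 mice, and the part of this in its Ffar4 and Hcar2 levels was not tested. The log2 fold change of Hcar2 with 10% RPS was -0.37 (interval -1.04 to 0.31, adjusted p = 0.567), and without that mouse it was 0.

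**Figure D3:**
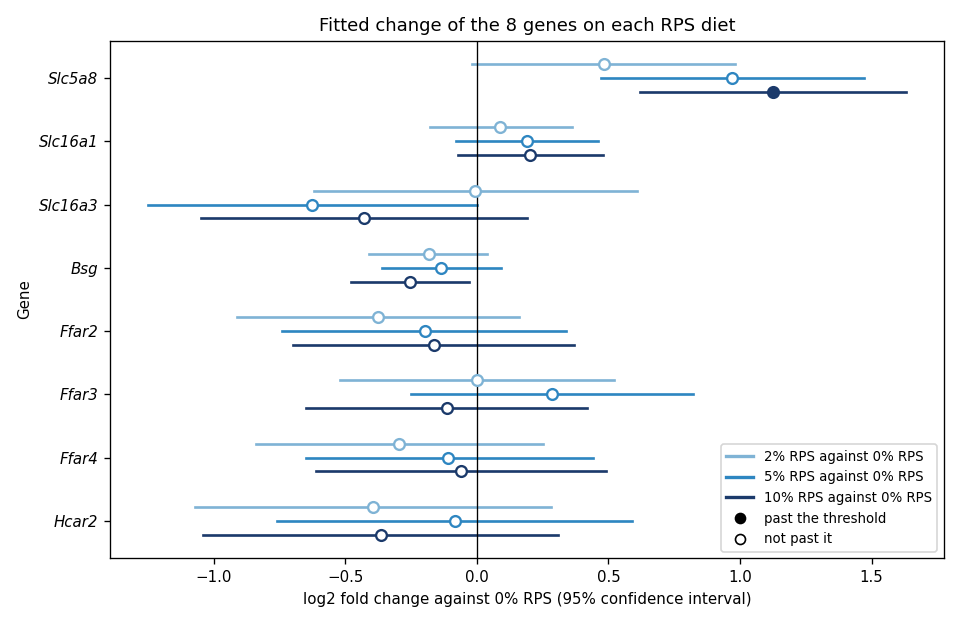
Fitted log2 fold change (points) and 95% confidence interval (lines) of each gene for 2, 5, and 10% RPS against 0% RPS, with filled points past the threshold. Slc5a8 with 10% RPS (1.12) is the filled point, and the intervals of Ffar2, Ffar3, Ffar4, and Hcar2 all include 0.

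Across the 8 members, the median log2 fold change with 10% RPS was -0.138 and that of all tested genes was 0.004. At an unadjusted p under 0.05, 2 of 8 members (Slc5a8 and Bsg) passed with 10% RPS, beside 19.5% of tested genes, and 2 of 8 (Slc5a8 and Slc16a3) passed with 5% RPS, beside 13.3%. With 5% RPS edgeR called 0 members and 0.195% of all genes, and DESeq2 called 1 member. No member separated all mice of a diet from all mice fed 0% RPS, which 4.88% of tested genes did with 10% RPS and 3.57% with 5% RPS. With 2% RPS, 0 members and 0% of genes were called, 0 members and 5.77% of genes had an unadjusted p under 0.05, and DESeq2 called 0 members and 5 genes in all. The same counts of members were found for 5% against 2% RPS (0% of genes called and 3.39% at the unadjusted p) and for 10% against 5% RPS (0% and 2.79%). DESeq2's Wald test called 0 genes in either of these contrasts.

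Slc5a8 and Slc16a3, the sodium-coupled importer and the lactate exporter, varied in opposite directions between mice. Over 20 mice the Pearson r of their log2 CPM was -0.752 (permutation p = 0.00015, adjusted p = 0.0042 over 28 member pairs) and the Spearman rho was -0.820 (permutation p = 3e-05, adjusted p = 0.00084). The permutations mixed mice of all diets, and values of r within diets were given no p. After subtracting the mean of each diet r was -0.750, and without the 2 mice farthest from the median of Slc16a3 it was -0.769. An r with Slc16a3 at least this far from 0 was found for 0.508% of the other tested genes. Mouse 5 on 2% RPS had the lowest Slc16a3 of all mice (3.82 CPM) and the highest Slc5a8 of its diet (142 CPM).

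**Figure D4:**
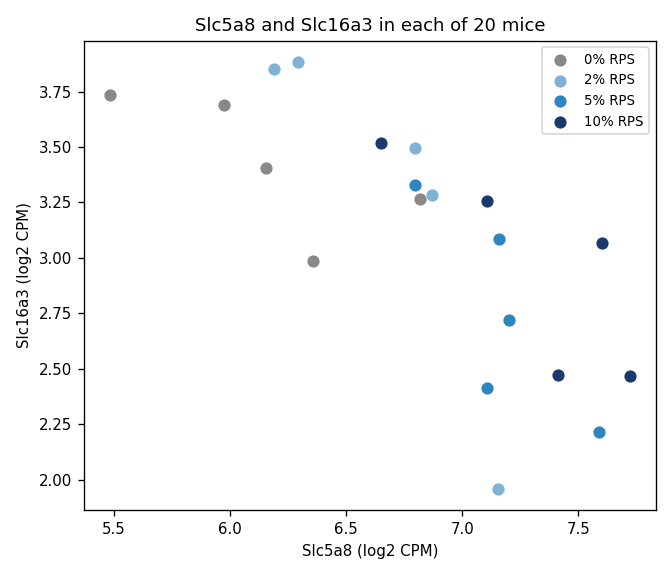
Slc5a8 against Slc16a3 (log2 CPM), 1 point per mouse, coloured by diet. Mice with more Slc5a8 have less Slc16a3 (r = -0.752), both over all mice and within diets (r = -0.750).

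Slc16a1 followed Slc5a8 (r = 0.661, permutation p = 0.00157, adjusted p = 0.0147, rho 0.654, adjusted p = 0.0217) and was opposite to Slc16a3 (r = -0.680, permutation p = 0.00105, adjusted p = 0.0147, rho -0.677, adjusted p = 0.0179). Within diets these r were 0.625 and -0.626, and without the 2 mice farthest from the median of Slc16a1 they were 0.518 and -0.590. An r with Slc16a1 at least as far from 0 as those over all mice was found for 6.85% and 5.45% of the other tested genes. For Bsg, r was -0.612 with Slc5a8 and -0.560 with Slc16a1 (permutation adjusted p = 0.0275 and 0.0486), with rho -0.579 and -0.549 (adjusted p = 0.053 and 0.0627). The 2 values of r were -0.508 and -0.51 within diets, and -0.351 and -0.436 without the 2 farthest mice. An r at least as far from 0 as over all mice was found for 10.1% of the other tested genes with Slc5a8 and 17.3% with Slc16a1. None of the 22 pairs that include a receptor passed the adjustment, and the highest r among them was 0.537 for Ffar3 with Hcar2 (permutation adjusted p = 0.0711). Within diets, r with the summed macrophage, B cell, and T cell genes was 0.607, 0.651, and 0.662 for Ffar3 and 0.583, 0.612, and 0.565 for Hcar2. All values share libraries and scaling, and marker levels moved with both genes of the opposite pair. For the summed epithelium, goblet cell, and smooth muscle genes, r was 0.593, 0.614, and -0.591 with Slc16a3 (0.474, 0.574, and -0.423 within diets). With Slc5a8 it was -0.629, -0.661, and 0.586 (-0.369, -0.353, and 0.189 within diets). The part of these levels in the correlations between members was not tested.

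The genes most like Slc5a8 over the 20 mice were Ly75, which encodes the endocytic receptor DEC-205 (r = 0.954), Ccl8, a chemokine (r = 0.937), and Itga9, an integrin subunit (r = 0.926). Within diets these r were 0.902, 0.898, and 0.855. Their log2 fold changes with 10% RPS were 0.85 for Ly75, 1.66 for Ccl8, and 0.59 for Itga9. These genes were picked for likeness to Slc5a8 over the same mice, diets included, so their differences between diets are given as values only.

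The genes most like Slc16a3 were Psca (r = 0.906), Pfkp, a phosphofructokinase (r = 0.898), and Asap1 (r = 0.883), with r of 0.928, 0.905, and 0.907 within diets. Psca had a mean of only 0.471 CPM, beside 136 CPM for Pfkp and 97.6 CPM for Asap1. Those most like Slc16a1 were Retreg3 (0.898), Gm45871 (0.872), and Mapk9 (0.872). Those most like Bsg were Gpx4, a glutathione peroxidase (0.963), Fkbp1a (0.962), and Mea1 (0.953). For the receptors the highest r were lower, 0.814 for Ffar2 with Cd47, 0.761 for Ffar3 with C1ra, 0.793 for Ffar4 with Ctnnal1, and 0.777 for Hcar2 with Mefv. These values describe likeness in the same libraries and have no test.

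Of 18 tested genes for other carriers of the Slc16a kind and related ion exchangers, 1 was called higher and 0 lower with 10% RPS, beside 0.547% and 0.495% of all tested genes. At an unadjusted p under 0.05, 3 were higher and 2 lower, beside 9.74% and 9.75%. The median log2 fold change was 0.12, beside 0.004 for all tested genes. Scaled to the epithelium marker genes, the median was 0.315, beside 0.197 for all tested genes. With that scaling 6 were higher and 2 lower at the unadjusted p, beside 21.2% and 1.73%. DESeq2 called 1 gene in each direction. The called gene was Slc26a3, the chloride-bicarbonate exchanger of colonocytes, with 1199, 1287, 1337, 1271, and 916 CPM with 0% RPS and 2048, 2459, 1615, 1528, and 1516 CPM with 10% RPS. Every mouse fed 10% RPS was above every mouse fed 0% RPS (log2 difference 0.61, SE 0.16, adjusted p = 0.0487), which also held for 1.68% of tested genes. The call was kept in 7 of 8 other settings and in 7 of 20 fits that left out 1 mouse. Slc16a5, another Slc16a carrier, was lower in every mouse with 10% RPS (100.7 to 132.5 CPM) than in any with 0% RPS (135.3 to 178.3 CPM). The same held for 3.2% of tested genes. Its log2 fold change was -0.43 (adjusted p = 0.0479), under the 1.5-fold limit. Slc16a5 fell over the doses by 0.041 log2 units per percent (adjusted p = 0.0488), where 0.73% of genes fell. Its log2 fold change with 10% RPS was -0.25 when scaled to the epithelium marker genes (adjusted p = 0.2), and with 1 mouse left out at a time the adjusted p ran from 0.0276 to 0.156. The trend was lost by library size only (adjusted p = 0.0617) and when scaled to the epithelium marker genes (slope -0.023, adjusted p = 0.186). Slc9a3, the sodium-proton exchanger NHE3, had a log2 fold change of -1.05 (SE 0.29, adjusted p = 0.0671) and Slc16a6 had 0.59 (adjusted p = 0.179). Slc9a3 stayed uncalled in 7 of 8 other settings and in 18 of 20 fits that left out 1 mouse, and was called in the rest.

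Of 16 tested genes for other metabolite-sensing receptors and their signalling partners, 0 were called by edgeR with 10% RPS, and 1 higher and 2 lower had an unadjusted p under 0.05, beside the 19.5% of all tested genes given above. DESeq2 also called 0. The median was -0.032, and it was 0.165 when scaled to the epithelium marker genes. Pparg, a fatty acid-activated nuclear receptor, fell over the doses by 0.040 log2 units per percent (adjusted p = 0.0459), and with 10% RPS its log2 fold change was -0.41 (adjusted p = 0.0507). Scaled to the epithelium marker genes, these were -0.022 per percent (adjusted p = 0.219) and -0.22 (adjusted p = 0.265), and by library size only the trend was also lost (adjusted p = 0.0811). Arrb1, which encodes a beta-arrestin, had 0.24 (adjusted p = 0.0782), and Or51e1, an olfactory-type receptor of fatty acids, had -0.49 (adjusted p = 0.226). When scaled to the epithelium marker genes they had 0.43 and -0.29. Ffar1, the long-chain fatty acid receptor gene next to Ffar3, varied from 3 to 198 counts per mouse and its log2 fold change was 1.67 (interval -0.34 to 3.68), and 2.9 without mouse 2 on 0% RPS (adjusted p = 0.106).

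Genes that activate and oxidise short-chain fatty acids were not called by edgeR or by DESeq2 (0 of 17 tested). Their median log2 fold change was -0.136, with 2 higher and 6 lower at an unadjusted p under 0.05, beside 9.74% and 9.75% of all tested genes. The 6 lower became 1 by library size only and 0 when scaled to the epithelium marker genes, while the share lower over all tested genes became 4.42% and 1.73%. Those with the lowest p were Hadh (-0.27, adjusted p = 0.0528), Acat1 (-0.22, adjusted p = 0.0934), Mcee (-0.25, adjusted p = 0.121), and Bdh1 (-0.20, adjusted p = 0.131), enzymes of the beta-oxidation, thiolase, propionate, and ketone body steps. Scaled to the epithelium marker genes, which moved the median of all tested genes to 0.197, the median of the list was 0.069 and these 4 genes had values between -0.07 and 0.

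Of 20 tested glycolysis and lactate genes, 4 were called lower and 0 higher with 10% RPS, beside 0.495% of all genes called lower, and 13 were lower at an unadjusted p under 0.05, beside 9.75% of all genes. Scaled to the epithelium marker genes, 1 was called lower and 6 were lower at the unadjusted p, beside 1.73% of all genes, and by library size only these were 4 and 9, beside 4.42%. The median was -0.309, and -0.118 when scaled to the epithelium marker genes. With 5% RPS 1 was called lower, beside 0.0977% of all genes, and 12 of 20 were lower at that level, beside 6.54% of all genes. Slc2a1, which encodes the glucose transporter GLUT1, had 345, 303, 371, 330, and 418 CPM with 0% RPS and 148, 181, 182, 230, and 174 CPM with 10% RPS, with no overlap (log2 fold change -0.95, SE 0.13, adjusted p = 0.00289).

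Pdk4, a kinase that restrains the entry of pyruvate into the citric acid cycle, fell by 1.51 on the log2 scale with 10% RPS (adjusted p = 0.0316). Pfkfb4, a regulator of phosphofructokinase, fell by 0.72 (adjusted p = 0.0289), and Gapdh fell by 0.78 (adjusted p = 0.0251). For all 3 the mice fed 10% RPS lay wholly below those fed 0% RPS, as they did for 3.2% of tested genes, and all 4 called genes also passed the linear trend (adjusted p = 0.00752 for Slc2a1, 0.0208 for Gapdh, 0.0297 for Pfkfb4, and 0.0453 for Pdk4). Scaled to the epithelium marker genes, Slc2a1 was the 1 gene of all those tested that passed the trend (adjusted p = 0.0283), while the other 3 had slopes of -0.068 (Gapdh), -0.057 (Pfkfb4), and -0.125 (Pdk4) log2 units per percent and adjusted p between 0.0577 and 0.0746. By library size only, Pdk4 had a slope of -0.135, against -0.143 with TMM, and an adjusted p of 0.0516. Gapdh had 145 to 734 counts per mouse (6.86 to 20.8 CPM). It has many near-identical pseudogenes, and how reads mapping to several places were counted is not stated. What part of its reads these counts hold is therefore not known. With 10% RPS and the same scaling to epithelium, Slc2a1 was past the threshold (-0.75), while Pdk4 (-1.34), Pfkfb4 (-0.54), and Gapdh (-0.59) had adjusted p between 0.0605 and 0.0817. With 1 mouse left out at a time, the call was kept in 20 of 20 fits for Slc2a1, 16 for Gapdh, 13 for Pfkfb4, and 12 for Pdk4. Of 8 other settings, the call was kept in 8 for Slc2a1, 6 for Gapdh, 7 for Pfkfb4, and 7 for Pdk4.

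**Figure D5:**
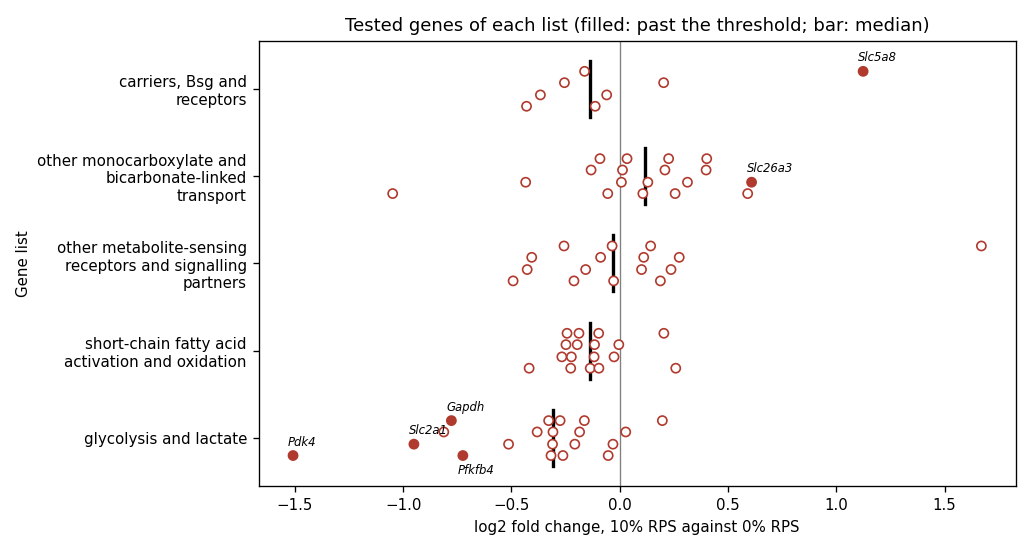
Log2 fold change with 10% RPS against 0% RPS for the tested genes of each list (points; filled when past the threshold and named; bar, median). Slc5a8 and Slc26a3 are filled on the right of 0, and Pdk4, Slc2a1, Gapdh, and Pfkfb4 are filled on the left.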

How the data were processed

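RNA from the cecum of 20 mice on 4 diets was analysed. Per the labels, libraries were stranded poly(A) libraries, and the authors trimmed single-end reads, mapped them to GRCm39, and deposited raw counts per gene made in the CLC Genomics Workbench. The annotation release, strand setting, and treatment of reads with several matches are not given in the sources used here. Counts were tested with edgeR 4.0.16 (quasi-likelihood, robust) in R 4.3.3 with the 4 diets in 1 fit. Genes needed a count of about 10 in 5 mice and 15 in total (filterByExpr, 15348 of 19887 genes, 99.98% of counts). CPM were scaled by TMM and log2 CPM used a prior count of 2. The alternative test was DESeq2 1.42.0. The scripts were tested on simulated data.

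The members and lists were chosen with earlier results of these data known. The text names the members, the genes of each list that were called and, up to 4 in all, those with the lowest p with 10% RPS, markers a check turns on, and the 3 genes most correlated with each member. Gene places and canonical transcripts are from GENCODE mouse release M39 on GRCm39, in which 19827 genes matched. Correlations used 100000 permutations over all mice, without regard to diet, in Python 3.11.15. Intervals cover model error, and the smallest library sets a floor of 0.19 CPM (3 counts), which covers counting error only. Where mice share a litter or cage, p-values would not show it. The alternatives were other scalings, filters, and tests, and leaving out each mouse.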

Additional observations from a re-analysis of the deposited data

Results flagged for a closer look

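Over the members and the named list genes, 96 groups of 5 mice were examined for a mouse far from the other 4 (a gap above 0.71 of the group's range, Dixon's 95% value), and 12 had one. Chance alone would give about 1 in 20. Bsg was 1340 CPM in mouse 5 on 0% RPS, where the others had 910 to 957 CPM, and 1130 CPM in mouse 4 on 5% RPS, where the others had 850 to 907 CPM. Ffar4 was 17.2 CPM in that same mouse 4 on 5% RPS, against 9.94 to 11.5 CPM.

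Slc26a3 was 2000 CPM in mouse 5 on 2% RPS, where the others had 1440 to 1540 CPM. This is the mouse with the lowest Slc16a3. Mouse 1 on 5% RPS had 358 CPM of Slc9a3, against 146 to 202 CPM, and 163 CPM of Acat1, against 144 to 149 CPM. Slc16a6 was 6.97 CPM in mouse 2 on 0% RPS, against 3.75 to 4.45 CPM. Pparg was 127 CPM in mouse 3 on 2% RPS, against 145 to 151 CPM, and Or51e1 was 2.48 CPM in mouse 1 on 10% RPS, against 1.79 to 1.96 CPM.

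Ffar1 stood out in 3 diets. It was 4.22 CPM in mouse 2 on 0% RPS (others 0.113 to 0.873 CPM), 5.93 CPM in mouse 3 on 2% RPS (others 0.104 to 1.12 CPM), and 0.49 CPM in mouse 2 on 10% RPS (others 4.43 to 5.18 CPM). The summed B cell genes were 231 and 347 CPM in the first 2 of these mice, the highest of their diets, and 16.3 CPM in the last, the lowest of its diet. Whether Ffar1 belongs to B cells in these sections was not tested.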

How the results depend on the processing

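No paired analysis was possible because no animal number in the labels recurs between diets, and the mice were numbered within each diet only to name them. Members called with 10% RPS numbered 1 under the other settings but 0 when only the 2 diets were fitted, and 0 to 1 without 1 mouse. With 5% RPS they were 1 by DESeq2's Wald test and 0 to 1 without 1 mouse (1 without mouse 1 on 5% RPS). For the trend they were 0 when scaled to the epithelium marker genes and 0 to 1 without 1 mouse. The log2 fold change of Slc5a8 with 10% RPS was 1.13 when only the 2 diets were fitted and 1 to 1.32 without 1 mouse. With 5% RPS it was 0.97 by DESeq2 and 0.84 to 1.17 without 1 mouse. Its slope was 0.126 when scaled to the epithelium marker genes and 0.096 to 0.124 without 1 mouse.

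Estimates of members that were not called changed sign as follows. Scaled to the epithelium marker genes they were 0.04 for Bsg, 0.06 for Ffar4, and 0.06 for Hcar2 with 5% RPS, and 0.02 for Ffar2, 0.09 for Ffar3, and 0.14 for Ffar4 with 10% RPS. Without a change of sign, that scaling moved Ffar3 to 0.46 and Ffar2 to -0.05 with 5% RPS and Hcar2 to -0.18 with 10% RPS. Ffar4 was 0.03 with 10% RPS by library size only. Without mouse 1 on 0% RPS, Ffar4 was 0.36 with 10% and 0.31 with 5% RPS, and Hcar2 was 0 with 10% and 0.29 with 5% RPS. Hcar2 was 0 with 5% RPS without mouse 2 on 0% RPS, and Ffar3 was 0.02 with 10% RPS without mouse 2 on 10% RPS.

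Over all genes, the 160 called with 10% RPS (84 higher, 76 lower) were 369 by DESeq2, 98 when only the 2 diets were fitted, 156 higher and 51 lower by library size only, and 111 higher and 25 lower when scaled to the epithelium marker genes. The 30 called with 5% RPS were 244 by DESeq2, 65 when only the 2 diets were fitted, 55 when scaled to those genes, and 46 by library size only. The 170 trend genes were 681 by DESeq2, 539 on the rank of the dose, 103 without a filter, and 1 when scaled to those genes. Leaving out 1 mouse moved Ffar2 between -0.3 and -0.02 with 10% RPS and between -0.35 and -0.06 with 5% RPS, and Ffar3 between 0.08 and 0.41 with 5% RPS. It gave lowest estimates of -0.23 (Ffar3), -0.20 (Ffar4), and -0.52 (Hcar2) with 10% RPS and -0.28 (Ffar4) and -0.25 (Hcar2) with 5% RPS. The cause of these shifts was not tested.

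Of the 3 genes most like each receptor, Spearman's rho kept 0 for Ffar2 and Ffar3 and 1 for Ffar4 and Hcar2. Depth limits Ffar2, Ffar3, and Hcar2 most (medians of 65.5, 40.5, and 22.5 counts per mouse), and whole tissue, unstated strand and multiple-match counting, and 5 mice a diet limit all members.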
